A study of Mus musculus with 27 samples.

Results

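Acetylcholine receptors are the proteins through which hippocampal neurons sense acetylcholine released by afferents from the basal forebrain. Transcripts of 8 receptor genes (Chrm1, Chrm2, Chrm3, Chrm4, Chrna4, Chrna5, Chrna7 and Chrnb2), of 31053 genes in the count matrices, were described in single nuclei of the mouse hippocampus, each chosen by its gene symbol. The series holds 27 libraries of 10x single-nucleus RNA-sequencing, 1 per mouse, from frozen hippocampi of animals between 8 and 10 months of age. The mice came from crosses of a tauopathy line, in which the mouse Prnp promoter drives human tau carrying the P301S mutation, with a line lacking Cgas, the sensor of cytosolic DNA that activates type I interferon signalling. The Cgas deletion is carried by the whole animal rather than by one cell type. Without the transgene there were 5 Cgas+/+ mice (2 female, 3 male), 2 male Cgas+/- mice and 2 male Cgas-/- mice. With the transgene there were 6 mice (3 female, 3 male) of each Cgas genotype, called P301S Cgas+/+, P301S Cgas+/- and P301S Cgas-/-.

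The muscarinic receptors are G protein-coupled. Chrm1 and Chrm3 encode the M1 and M3 receptors, which act through Gq, phospholipase C and the closing of Kcnq potassium channels and so make neurons more excitable, whereas Chrm2 and Chrm4 encode the M2 and M4 receptors, which act through Gi/o and often sit on axon terminals, where they restrain release. The nicotinic receptors are ligand-gated cation channels built of subunits: Chrna4 with Chrnb2 forms the high-affinity brain receptor, Chrna5 is an accessory subunit of that receptor that raises its calcium permeability and sensitivity, and Chrna7 forms a channel of its own with high calcium permeability.

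The libraries held between 46091490 and 79484316 unique molecular identifiers (UMIs), and 204852 of 241938 deposited barcodes passed the filters on genes, mitochondrial reads and doublets. Kept nuclei numbered 5840 to 12572 per mouse, with a median of 2025.5 to 7538.5 UMIs per nucleus. Clusters were named by marker lists as neuron-like and glia-like classes and, within neurons, as subtypes. No acetylcholine receptor gene was among the genes used for clustering. The classes included 81777 excitatory neuron-like nuclei, among them 12609 CA1-like, 19856 dentate granule-like, 3709 CA3-like and 29308 cortical-like, and 12385 inhibitory neuron-like nuclei. The tissue is labelled hippocampus, yet nuclei with markers of the cerebral cortex made up from 3.11% to 68.3% of excitatory nuclei in single mice. No pair of libraries shared more than 48 barcodes. Cgas itself (listed as Mb21d1) did not follow the labels in every group of microglia-like nuclei. Its mean level, in CPM (UMIs of the gene per 1e+06 UMIs of all genes in that class and mouse), was 35.4 in Cgas+/+ (32.2 to 38.2), 18.2 in Cgas+/- (15.9 and 20.4) and 27.1 in Cgas-/- mice (21.6 and 32.6), and with the transgene it was 37.2 in Cgas+/+, 41.8 in Cgas+/- and 50.2 in Cgas-/- mice. Which part of the gene the allele removes is not given in the sources used here, so reads outside it check nothing, and all groups are named by their labels. Over all kept nuclei, Mapt had a mean of 537 to 572 CPM in the groups without the transgene and 692 to 719 CPM in the P301S groups. In excitatory neuron-like nuclei alone the group means were closer, at 451 to 494 CPM and 500 to 540 CPM.

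The receptor genes differ in their annotated structure, which matters for a count that includes introns. In the GRCm38 annotation used here, Chrm1 lies on chromosome 19 from 8663789 to 8683587 (plus strand), Chrm2 on chromosome 6 from 36388084 to 36528414 (plus), Chrm3 on chromosome 13 from 9875486 to 10360847 (minus) and Chrm4 on chromosome 2 from 91927249 to 91928688 (plus). Chrna4 lies on chromosome 2 from 181018380 to 181043546 (minus), Chrna5 on chromosome 9 from 54980880 to 55007779 (plus), Chrna7 on chromosome 7 from 63098692 to 63212569 (minus) and Chrnb2 on chromosome 3 from 89746195 to 89764632 (minus). Exons make up 1.29% of the Chrm3 locus, 3.96% of Chrna7, 4.31% of Chrm2, 11.6% of Chrna5, 32.8% of Chrm1 and the whole of Chrm4, which is annotated as 1 exon of 1440 bases. Opposite-strand genes overlap Chrm2 (9330158H04Rik, by 2108 bases), Chrm3 (Gm26861, by 3253 bases) and Chrnb2 (Adar, by 7252 bases). Whether counting used the strand is not given in the sources used here, so reads from these overlaps are uncertain. Over all kept nuclei the genes collected 881846 UMIs (Chrm3), 106078 (Chrna7), 77065 (Chrm2), 48095 (Chrm1), 5984 (Chrna4), 5857 (Chrnb2), 3071 (Chrna5) and 178 (Chrm4). These sums may depend on gene length as well as on expression, which was not tested, and they were not compared between genes.

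Apart from Chrnb2 and Chrm4, each receptor gene had its own distribution over neuron subtypes, with differences that passed the test. In a fit with the mouse as a block, 7 receptor genes could be tested, and Chrm4 fell below the count filter. CA1-like nuclei had more of 4 of the 7 than dentate granule-like nuclei and less of none (69.2% of all 11053 genes tested were called between these subtypes at an adjusted p under 0.05, edgeR's quasi-likelihood test). CA3-like nuclei differed from dentate granule-like nuclei in 2 genes (67.6% of all genes called) and from CA1-like nuclei in 5, all lower in CA3 (52.6% of all genes). In CA2-like nuclei, found in sufficient number in 8 mice, 3 genes differed from CA3 (31.4% of all genes). Cortical-like nuclei differed from CA1-like nuclei in 6 genes, 2 higher and 4 lower (64.8% of all genes).

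Between interneuron subtypes, the receptor genes that differed numbered 5 for Sst-like against Pvalb-like nuclei (45.1% of all genes called), 6 for Sst-like against Vip-like (44.7%), 6 for Sst-like against Lamp5-like (47.3%), 6 for Pvalb-like against Vip-like (57.5%), 6 for Pvalb-like against Lamp5-like (55%) and 4 for Vip-like against Lamp5-like (45.8%). With the 4 interneuron subtypes summed, 6 genes differed from excitatory neuron-like nuclei, Chrm2 and Chrnb2 being higher in interneurons and Chrm1, Chrm3, Chrna4 and Chrna5 lower (74.7% of all genes called). With so many genes called in every pair, the count of receptor genes says little by itself, and the sizes and directions below carry the description.

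**Figure D1:**
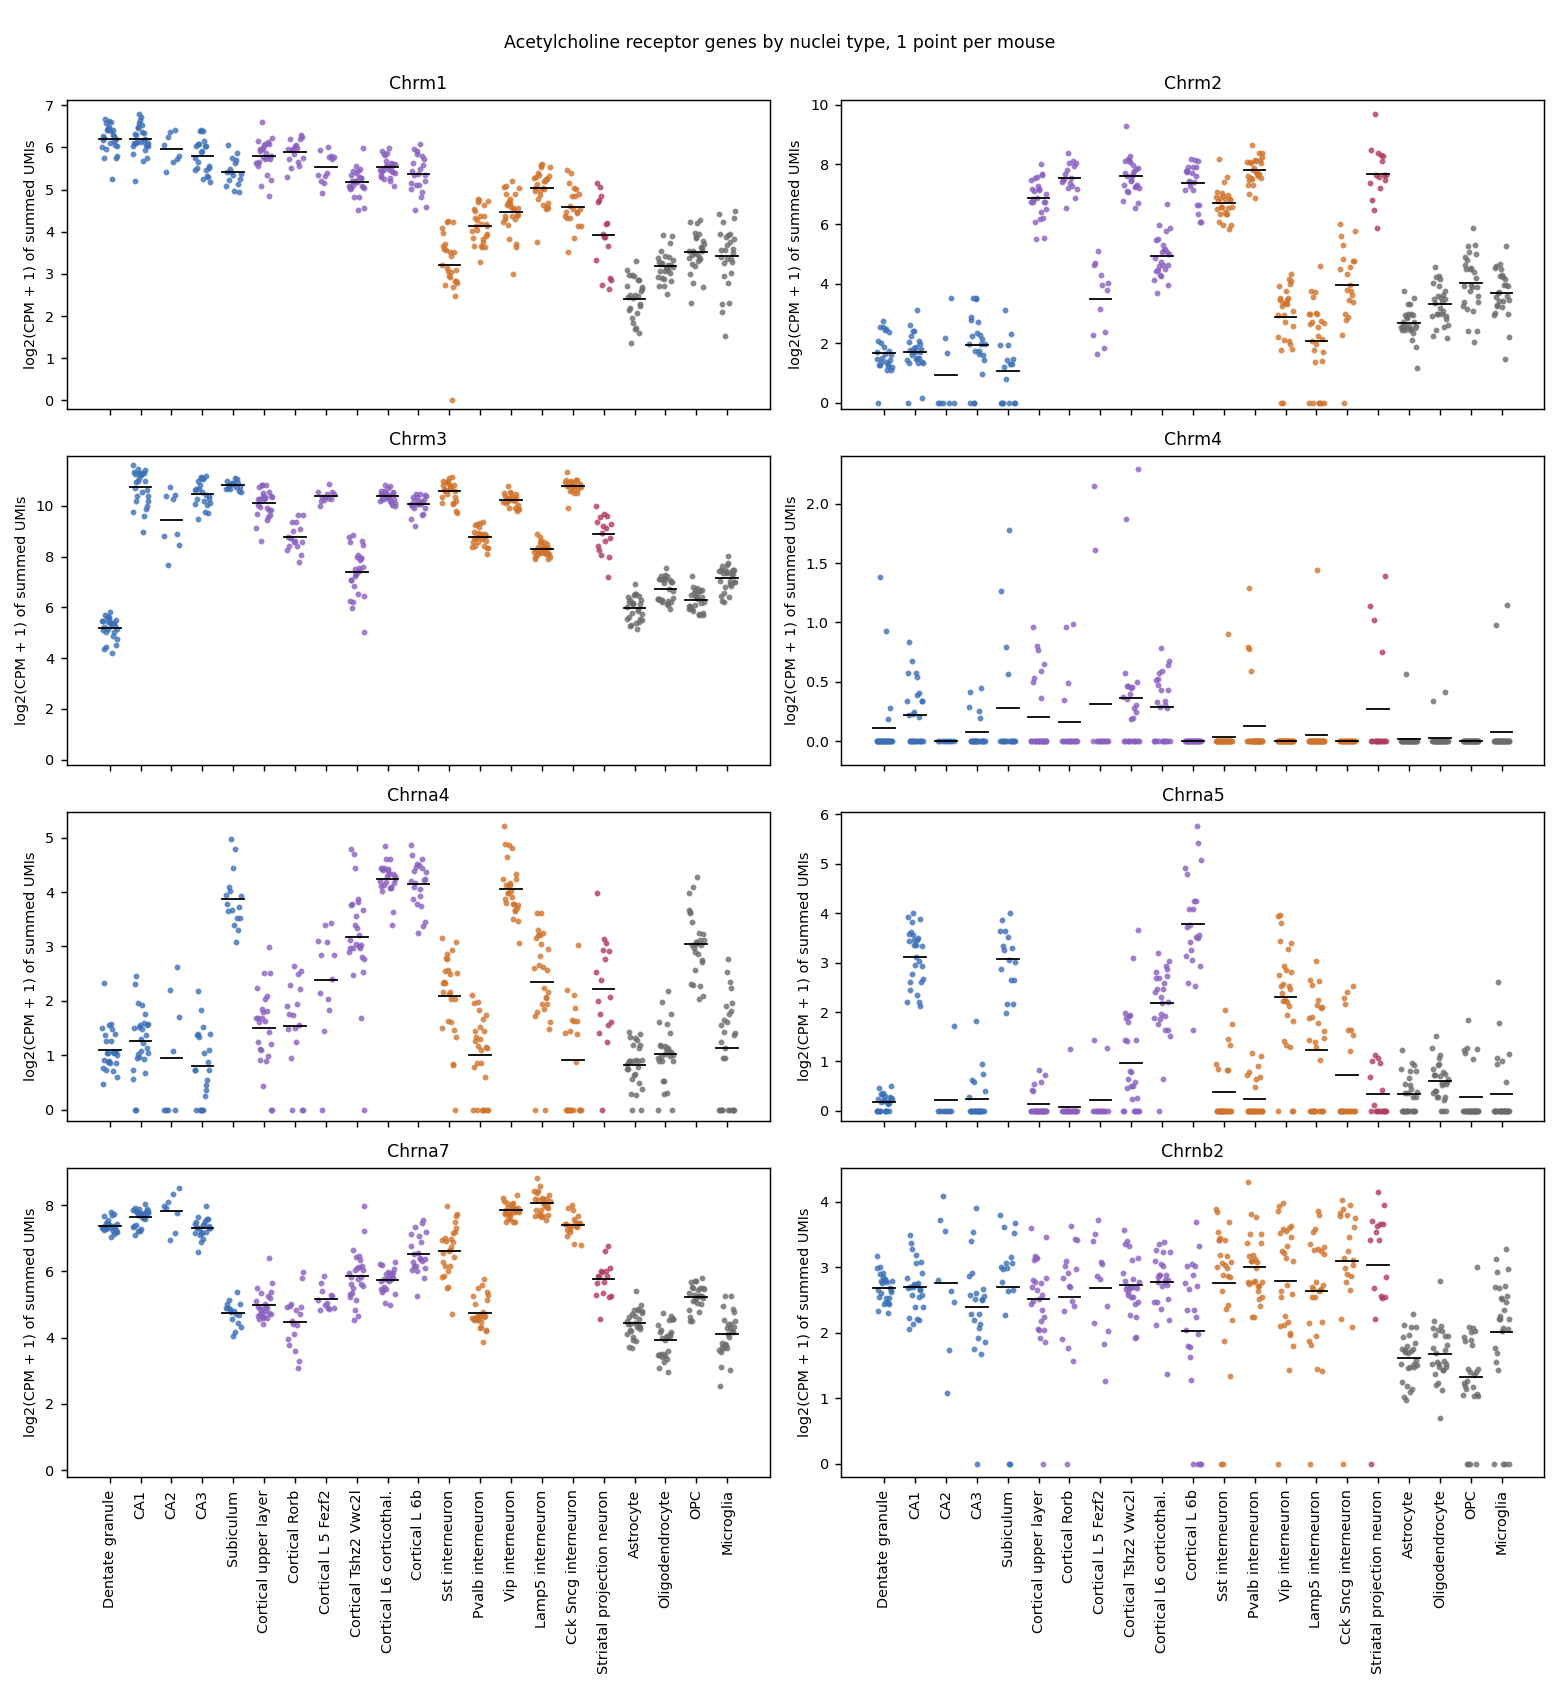
Level of each acetylcholine receptor gene, as log2 of CPM + 1 (vertical axis), in every marker-defined type of nuclei (horizontal axis), with 1 point per mouse holding at least 20 nuclei of the type and a bar at the mean. Chrm3 is near the glial level in dentate granule-like nuclei and far above it in CA1-like and CA3-like nuclei, Chrm2 is high in Pvalb-like, Sst-like, cortical-like and striatal-like nuclei, and Chrm4 is close to 0 in all types.

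Chrm1, which encodes the principal postsynaptic muscarinic receptor of forebrain pyramidal neurons, was a gene of excitatory neurons. Its level in dentate granule-like nuclei was 74.6 ± 15.7 CPM (mean ± SD, n = 26 mice of all groups, lowest 37.1, median 74.6, highest 101). In CA1-like nuclei it was 73.9 ± 17.1 CPM (n = 27, lowest 35.7, median 69.5, highest 109.6). The values of these subtypes overlapped almost completely, and the difference of CA1 from dentate granule nuclei, 0.05 (SE 0.06) on the log2 scale, did not pass the test (edgeR adjusted p = 0.50, 95% interval -0.08 to 0.18). CA2-like nuclei, with 63.2 ± 16.0 CPM in 8 mice, were not called different from CA1 either. CA3-like nuclei stood below, at 56.3 ± 15.5 CPM (n = 22), a difference from CA1 of -0.44 (SE 0.07) on the log2 scale (adjusted p = 8.5e-08).

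Cortical-like nuclei (45.2 ± 8.21 CPM, n = 27) and subiculum-like nuclei (42.8 ± 10.2 CPM, n = 16) came next and were not called different from each other. Within the cortex, Chrm1 spanned a narrow range, from 35.9 CPM in nuclei marked by Tshz2 and Vwc2l to 59.6 CPM in Rorb-marked nuclei. Interneurons carried less Chrm1, in the order Lamp5-like (33.3 CPM), Cck Sncg-like (24.4), Vip-like (22.3), Pvalb-like (17.4) and Sst-like (9.45 ± 4.50, n = 26). Each neighbour in this order was called lower than the one before it, except Vip-like against Cck Sncg-like nuclei. The call of Pvalb-like against Vip-like nuclei was lost without the low-count filter (-0.25, edgeR adjusted p = 0.092). The 4 interneuron subtypes summed differed from excitatory nuclei by -1.67 (SE 0.04) on the log2 scale (19.4 against 58.0 CPM, adjusted p = 5.1e-26). Astrocyte-, oligodendrocyte-, OPC- and microglia-like nuclei held 4.62 to 10.9 CPM, so the Sst-like level lay within the range of glia. Glia-like nuclei held fewer UMIs each than neuron-like nuclei, and whether this level is background was not tested.

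Chrm3, which encodes the Gq-coupled M3 receptor, separated both CA1 and CA3 from the dentate gyrus. In CA1-like nuclei it was at 1865 ± 728 CPM (n = 27, lowest 497, median 2019.6, highest 3098). In dentate granule-like nuclei it was at 36.8 ± 10.1 CPM (n = 26, lowest 17.2, median 38.8, highest 55.3). The lowest CA1 value exceeded the highest dentate value, and within single mice the CA1 level was 18.8 to 98.6 times the dentate level (median 51.4, 26 mice). The difference was 5.67 (SE 0.12) on the log2 scale (adjusted p = 3.2e-116). CA3-like nuclei, at 1508 ± 498 CPM (n = 22), exceeded dentate granule-like nuclei by 5.38 (SE 0.12, adjusted p = 3.2e-111) and differed from CA1 by -0.29 (SE 0.10, adjusted p = 0.0086).

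The dentate level of Chrm3 was at or under the level of glia. Astrocyte-like nuclei held 64.4 CPM, OPC-like 80.5, oligodendrocyte-like 109 and microglia-like 148, and the dentate level was under the microglial level in 26 of 26 mice. After each nucleus was thinned to 1000 UMIs, 69.3% of CA1-like nuclei had a Chrm3 UMI, against 3.49% of dentate granule-like, 6.11% of astrocyte-like and 11.99% of microglia-like nuclei. Before thinning, with median depths of 10748, 7924 and 1635 UMIs in CA1-, dentate granule- and microglia-like nuclei, the shares were 91.0%, 20.2% and 18.5%.

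Among other neurons, Chrm3 was at 1815 ± 208 CPM in subiculum-like nuclei (n = 16) and 1790.5 ± 319 CPM in Cck Sncg-like interneurons (n = 21), neither of which was called different from the next higher subtype. Sst-like interneurons followed with 1565 ± 383 CPM (n = 26) and Vip-like interneurons with 1219 ± 196 CPM (n = 27). Pvalb-like (447 ± 102 CPM) and Lamp5-like interneurons (316 ± 57.9 CPM) had the least among interneurons, yet Lamp5-like nuclei still exceeded dentate granule-like nuclei by 3.02 (SE 0.11) on the log2 scale. Hilar mossy-like nuclei, found in sufficient number in 2 mice, had a mean of 1814 CPM, far above the dentate granule-like level. In the cortex, no pair among layer 6 corticothalamic-like (1359 CPM), layer 5 Fezf2-like (1348 CPM), upper layer-like (1169 CPM) and layer 6b-like nuclei (1094 CPM) was called different. Rorb-marked (464 CPM) and Tshz2 Vwc2l-marked nuclei (202 CPM) were each lower than the subtype above (adjusted p = 1.0e-11 and 5.7e-08).

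Within CA1, Chrm3 was also uneven. The CA1-like nuclei formed 3 subclusters, and in the first, led by Pde11a and Dcn (2811 nuclei), Chrm3 was at 410.3 ± 221 CPM, against 2265 ± 532 CPM in the second (8143 nuclei) and 1412 ± 446 CPM in the third (1655 nuclei). Chrm3 was lower in the first subcluster than in the second in 19 of 19 mice with at least 20 nuclei of each, by 2.47 ± 0.68 (SD) on the log2 scale, with a range of 1.40 to 3.71. Receptor genes had not been used to form these subclusters, but genes that vary with Chrm3 may have been, so the difference is a description. The share of CA1-like nuclei in the first subcluster ran from 0% to 63.1% between mice, and the mouse with the lowest CA1 level of Chrm3 had the highest share while the mouse with the highest level had none. Its median was 23.02% in Cgas+/+ mice, it was 17.9% and 42.0% in the 2 Cgas+/- and 32.8% and 35.01% in the 2 Cgas-/- mice, and its median was 25.5% in P301S Cgas+/+, 2.93% in P301S Cgas+/- and 9.49% in P301S Cgas-/- mice.

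**Figure D2:**
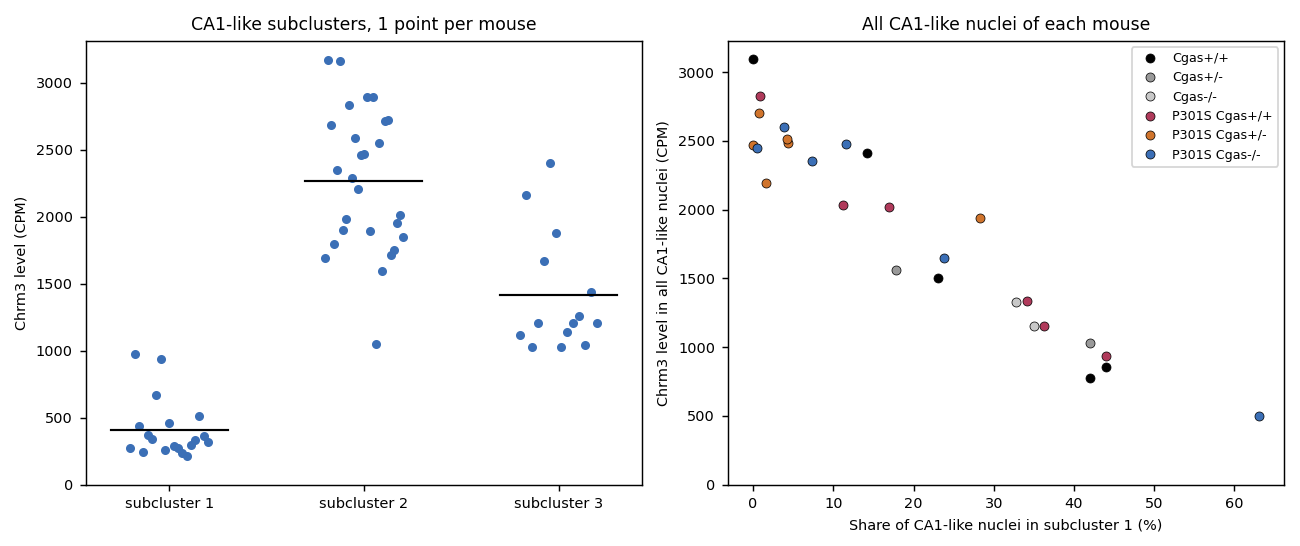
Left, Chrm3 level in CPM (vertical axis) in each of the 3 CA1-like subclusters, with 1 point per mouse. Right, Chrm3 level in all CA1-like nuclei in CPM against the percentage of a mouse's CA1-like nuclei that fall in the first subcluster, coloured by genotype group. Mice with a large share of the first subcluster, up to 63.1%, sit at the lower end of the CA1 level, down to 497 CPM.

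Chrm2, which encodes the Gi-coupled M2 receptor long known from interneurons and axon terminals, was high in particular interneurons and cortical neurons and low in hippocampal principal cells. In Pvalb-like interneurons it reached 231 ± 66.5 CPM (n = 27, lowest 117, median 213, highest 398). In Sst-like interneurons it was 111 ± 48.7 CPM (n = 26, lowest 55.7, median 102, highest 293). Vip-like (8.12 CPM) and Lamp5-like interneurons (4.98 CPM) lay far below, Pvalb-like nuclei exceeding them by 4.74 (SE 0.18) and 5.41 (SE 0.19) on the log2 scale. No Pvalb-like value overlapped with any Vip- or Lamp5-like value, the highest of which were 19.0 and 23.2 CPM. Cck Sncg-like interneurons held 20.9 ± 17.1 CPM.

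Cortical-like nuclei held 122 ± 34.7 CPM of Chrm2 (n = 27, lowest 67.0, median 116, highest 242), whereas CA1-like nuclei held 2.56 ± 1.53 CPM (highest 7.66). The groups did not overlap, and the difference was 5.57 (SE 0.16) on the log2 scale (adjusted p = 8.6e-97). CA3-like (3.83 CPM), dentate granule-like (2.45 CPM) and subiculum-like nuclei (1.61 CPM) were as low, all under the 5.75 to 19.0 CPM of glia-like nuclei. Whether these low levels are background was not tested. Inside the cortex Chrm2 was highest in Tshz2 Vwc2l-marked (211 ± 105 CPM), Rorb-marked (197 ± 63.6 CPM) and layer 6b-like nuclei (181 ± 69.3 CPM), whose neighbours were not called different. Upper layer-like nuclei (128 CPM) were lower, and layer 6 corticothalamic-like nuclei (33.3 CPM) and layer 5 Fezf2-like nuclei (13.6 CPM) lower again (adjusted p = 7.8e-20 and 0.0014 for the last 2 steps). Striatal-like nuclei, of which 51.5% came from 1 library, had 247 CPM.

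The interneuron class also held nuclei with much more Chrm2. An unnamed inhibitory subcluster of 184 nuclei, with Chrm2 among its leading genes and 13.04% of its nuclei from the largest contributor, had a Chrm2 UMI in 97.3% of its nuclei and a pooled level of 3224 CPM. Pvalb-like subclusters ranged from a pooled 14.3 CPM to 376 CPM. The opposite-strand gene 9330158H04Rik, which overlaps the 5′ end of Chrm2, was itself at 19.3 CPM in Pvalb-like, 14.6 in Sst-like, 4.35 in cortical-like and 0.278 in CA1-like nuclei, and its part in the Chrm2 counts was not tested.

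Chrm4, which encodes the M4 receptor, was close to undetected. Its 178 UMIs over all nuclei gave at most 0.457 CPM in a neuron subtype (layer 5 Fezf2-like nuclei), and group means over all nuclei ran from 0.0552 CPM in Cgas-/- to 0.211 CPM in P301S Cgas-/- mice. Striatal-like nuclei, where M4 is known as an abundant receptor, held 0.283 CPM. The annotated gene is 1 exon of 1440 bases, and the libraries read the 3′ ends of transcripts. Whether reads fell outside the annotated exon was not tested, so these counts cannot show that the transcript was absent.

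Chrna4, the alpha subunit of the high-affinity nicotinic receptor, had its higher levels in layer 6 corticothalamic-like, layer 6b-like and subiculum-like nuclei and Vip-like interneurons. In Vip-like interneurons it was at 16.7 ± 6.62 CPM (n = 27, lowest 7.38, median 14.8, highest 36.0), and in Pvalb-like interneurons at 1.25 ± 1.02 CPM (highest 3.31). These ranges did not overlap, and the difference of Pvalb-like from Vip-like nuclei was -3.51 (SE 0.20) on the log2 scale (adjusted p = 3.6e-47). Subiculum-like nuclei (14.5 ± 6.35 CPM, n = 16) were not called different from Vip-like nuclei. Layer 6 corticothalamic-like (18.3 ± 3.71 CPM) and layer 6b-like nuclei (17.4 ± 5.13 CPM) were not called different from each other, and both were called above Tshz2 Vwc2l-marked (9.74), layer 5 Fezf2-like (5.16), Rorb-marked (2.39) and upper layer-like nuclei (2.19 CPM).

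The hippocampal principal cells had little Chrna4, with 1.60 ± 1.05 CPM in CA1-like, 1.24 ± 0.725 in dentate granule-like and 0.940 ± 0.927 in CA3-like nuclei. Astrocyte-, oligodendrocyte- and microglia-like nuclei held 0.831 to 1.65 CPM, so these levels lay within the range of those glia. Whether they are background was not tested, and CA1 exceeded the dentate gyrus by 0.66 (SE 0.16, adjusted p = 9.6e-05). OPC-like nuclei stood apart from the other glia with 8.01 CPM. Cortical-like nuclei as a whole exceeded CA1-like nuclei by 2.54 (SE 0.12) on the log2 scale (adjusted p = 2.3e-62).

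Chrna5, the accessory subunit, marked CA1-like and subiculum-like nuclei and a deep cortical population. CA1-like nuclei held 8.35 ± 3.47 CPM (n = 27, lowest 3.36, median 9.04, highest 14.9), and subiculum-like nuclei held 8.10 ± 3.62 CPM (n = 16). In contrast, CA3-like nuclei held 0.262 ± 0.578 CPM from 9 UMIs in all, and dentate granule-like nuclei 0.137 ± 0.124 CPM from 28 UMIs. Every CA1 value lay above every value of CA3 (highest 2.55) and dentate granule nuclei (highest 0.414), which themselves lay under the 0.322 to 0.582 CPM of the 4 glial classes on average. CA3 differed from CA1 by -5.09 (SE 0.30, adjusted p = 8.3e-46) and CA1 exceeded the dentate gyrus by 5.37 (SE 0.20, adjusted p = 6.0e-88). Both Chrm3 and Chrna5 were thus far lower in the dentate gyrus than in CA1. CA3 was within 0.29 of CA1 on the log2 scale for Chrm3 but far below CA1 for Chrna5. With 9 and 28 UMIs of Chrna5, the comparison of CA3 with the dentate gyrus cannot decide whether they differ. It was not called by edgeR (0.28, adjusted p = 0.66) and was called by limma voom (1.09, adjusted p = 2.5e-04).

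Layer 6b-like nuclei had 16.3 ± 12.9 CPM of Chrna5 (n = 22, lowest 2.13, highest 53.2), above layer 6 corticothalamic-like nuclei at 4.01 ± 2.05 CPM by 2.07 (SE 0.22, adjusted p = 4.2e-15). An excitatory subcluster that could not be named, led by Kcnip1, Vwc2l and Kcnh8 (2106 nuclei, 26 mice), had 37.2 ± 12.1 CPM, more than any named subtype. Vip-like interneurons had 5.26 ± 4.09 CPM, and they exceeded Lamp5-like interneurons (1.99 CPM) by 1.35 (SE 0.33). Layer 6b-like and subiculum-like nuclei and Vip-like interneurons were among those that carried both Chrna4 and Chrna5 at their higher levels, whereas CA1-like nuclei carried Chrna5 with Chrna4 at the glial level.

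Chrna7, whose product forms calcium-permeable channels, was spread over hippocampal principal cells and interneurons and low in Pvalb-like and cortical-like nuclei. The highest mean of the tested subtypes was in Lamp5-like interneurons, 271 ± 61.5 CPM (n = 27, lowest 187, median 264, highest 449). CA2-like nuclei (242 ± 82.8 CPM, n = 8), Vip-like interneurons (231 ± 35.2 CPM) and CA1-like nuclei (202 ± 32.2 CPM, lowest 138, median 212, highest 259.8) followed, with no neighbours called different. Dentate granule-like (167 ± 22.5 CPM) and CA3-like nuclei (161 ± 32.0 CPM) were not called different either (0.01, SE 0.10), and CA1 exceeded the dentate gyrus by only 0.35 (SE 0.09, adjusted p = 4.8e-04). Hilar mossy-like nuclei had 531 and 614 CPM in the 2 mice that held enough of them.

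Pvalb-like interneurons held 27.4 CPM of Chrna7 (lowest 13.6, median 23.7, highest 54.0), below every Lamp5-like value, and the difference from Lamp5-like interneurons was -3.36 (SE 0.11) on the log2 scale (adjusted p = 6.4e-76). Sst-like interneurons were at 111 ± 55.5 CPM (lowest 25.3, highest 250.0), and their subclusters ranged from a pooled 38.2 to 257 CPM. Cortical-like nuclei held 55.5 ± 23.5 CPM and differed from CA1 by -2.04 (SE 0.10) on the log2 scale (adjusted p = 8.05e-54), and within the cortex layer 6b-like nuclei were highest at 99.4 CPM. Subiculum-like nuclei were lower still, at 26.4 ± 6.58 CPM, while glia-like nuclei held 15.1 to 38.0 CPM. Chrm2 and Chrna7 therefore ran in opposite directions between Pvalb-like and Lamp5-like interneurons and between cortical-like and CA1-like nuclei.

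Chrnb2, the beta subunit that assembles with Chrna4, was even. Its mean lay between 4.17 CPM (layer 6b-like) and 8.78 CPM (Cck Sncg-like) in every neuron subtype, above the 1.82 to 3.76 CPM of the 4 glial classes. None of the 11 pairs of subtypes set out above for comparison was called for Chrnb2. The 4 interneuron subtypes summed exceeded excitatory nuclei by 0.23 (SE 0.05) on the log2 scale (7.17 against 5.70 CPM, adjusted p = 1.8e-04). Adar, which overlaps the Chrnb2 locus on the opposite strand, ran from 54.2 CPM in oligodendrocyte-like to 191 CPM in Lamp5-like nuclei.

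The study asked how P301S tau and the loss of Cgas change hippocampal cells. No receptor gene was called by edgeR in any of the genotype comparisons of the classes tested. CA2-like and CA3-like nuclei were not among the 13 classes, as too few mice held 20 of them (3 P301S Cgas-/- mice for CA3). The classes overlap. Excitatory nuclei include the dentate granule-, CA1- and cortical-like nuclei, and inhibitory nuclei include the Sst-, Pvalb-, Vip- and Lamp5-like. The combinations therefore share nuclei and are not independent. For P301S Cgas+/+ against Cgas+/+ mice, 0 of 66 combinations of 7 genes and 13 classes were called, 3 had an unadjusted p under 0.05, and DESeq2 called 0 (of all gene and class combinations, edgeR called 0.0123% and DESeq2 0.302%). For P301S Cgas-/- against P301S Cgas+/+ mice, 0 of 66 were called, 7 had an unadjusted p under 0.05 and DESeq2 called 0 (edgeR called 0.00205% and DESeq2 0.162% of all). For P301S Cgas+/- against P301S Cgas+/+ mice the values were 0, 7 and 1 (0.00205% and 0.173% of all). Between female and male mice they were 0, 7 and 0, although edgeR called 2.69% and DESeq2 4.64% of all combinations there. For tau, 4.55% of the receptor gene combinations had an unadjusted p under 0.05, against 4.87% of the combinations of all genes. These shares were 10.6% against 5.76% for the deletion, 10.6% against 5.51% for the heterozygotes and 10.6% against 15.2% for sex. The median log2 differences over the receptor genes were -0.01, -0.02, 0.02 and 0.12 in the same order, and those over all genes in a class lay within -0.01 and 0.01.

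With the 2 Cgas+/- and 2 Cgas-/- mice added in a separate fit of 27 mice and 5 neuronal classes, 8 genes entered. Cgas-/- against Cgas+/+ gave 0 of 35 calls, 4 unadjusted p under 0.05 (11.4% against 3.74% of all combinations) and 0 calls by DESeq2, and of all combinations edgeR called 0% and DESeq2 0.0719%. The interaction, that is the effect of the deletion with the transgene minus its effect without, gave 0 of 35 calls, 6 unadjusted p under 0.05 (17.1% against 7.67% of all) and 3 calls by DESeq2, and of all combinations edgeR called 0.00533% and DESeq2 1.22%. These comparisons rest on 2 male Cgas-/- mice. Both carry Cell Ranger version 3.0.2 in their file headers, whereas the other groups compared held both 3.0.2 and 3.1.0. That version was not a term in this fit, and its part was not tested.

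Several of the differences by genotype with an unadjusted p under 0.05 were in excitatory neuron-like nuclei taken as a whole. Chrm2 was at a lowest of 11.2, a median of 51.5 and a highest of 75.7 CPM in P301S Cgas+/+ mice, at 74.8, 100.4 and 108.9 CPM in P301S Cgas+/- mice and at 46.7, 111 and 169 CPM in P301S Cgas-/- mice. The first and second of these groups overlapped by 1 mouse, and the P301S Cgas-/- range reached into that of P301S Cgas+/+. Without the transgene, Cgas+/+ mice had 24.2, 61.3 and 84.9 CPM, the Cgas+/- mice 23.9 and 56.0 CPM and the Cgas-/- mice 8.21 and 16.9 CPM, under every Cgas+/+ value. Under P301S the log2 difference was 1.2 (SE 0.40, edgeR adjusted p = 0.22) for Cgas-/- and 1.05 (SE 0.40, adjusted p = 0.30) for Cgas+/-. Without P301S it was -2.11 (SE 0.67, adjusted p = 0.52), and the interaction was 3.31 (SE 0.80, edgeR adjusted p = 0.060, DESeq2 adjusted p = 6.5e-04). It passed edgeR's test once Cgas+/+ mouse 1 (3.51, adjusted p = 0.045), Cgas+/+ mouse 2 (3.56, adjusted p = 0.023), P301S Cgas+/+ mouse 1 (3.39, adjusted p = 0.026) or P301S Cgas-/- mouse 4 (3.41, adjusted p = 0.044) was left out.

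The make-up of the excitatory nuclei moved with this result. The cortical-like share was on average 32.6% of excitatory nuclei in Cgas+/+, 22.8% in Cgas+/-, 6.82% in Cgas-/-, 24.1% in P301S Cgas+/+, 48.8% in P301S Cgas+/- and 47.5% in P301S Cgas-/- mice. As with Chrm2, the lowest mean was that of Cgas-/- mice and the highest were those of P301S Cgas+/- and P301S Cgas-/- mice. Dentate granule-like nuclei made up 48.4% of excitatory nuclei in Cgas-/- and 15.02% in P301S Cgas-/- mice, and from P301S Cgas+/+ to P301S Cgas-/- mice the CA1-like share went from 21.5% to 12.3% and the CA3-like share from 5.93% to 0.977%. The upper limit on genes per nucleus removed 510 to 870 barcodes per library in P301S Cgas+/+ and 311 to 2066 in P301S Cgas-/- mice. Kept nuclei of the CA3-like subclusters were deep, with medians of 13315 and 11476 UMIs. The part of this limit in the shares of excitatory subtypes was not tested. Excitatory nuclei that could not be named made up 17.6% in Cgas+/+, 5.999% in Cgas-/-, 14.5% in P301S Cgas+/+, 19.5% in P301S Cgas+/- and 22.4% in P301S Cgas-/- mice, and they held 37.6% of the Chrm2 UMIs of the excitatory class. Among them, a subcluster of 2184 nuclei with Chrm2 among its leading genes was at 532 ± 53.6 CPM (n = 10 mice). It averaged 2.09%, 2.75% and 6.32% of excitatory nuclei in the 3 P301S groups, with medians of 0.0930%, 0.787% and 3.17%. In P301S Cgas+/+ mouse 3 it held 11.7% of excitatory nuclei and 67.1% of their Chrm2 UMIs. Without it that mouse went from 75.7 to 27.4 CPM. Without that subcluster, an alternative chosen after seeing the data, the mean levels of Chrm2 over excitatory nuclei in these groups were 36.4, 85.4 and 88.0 CPM, against 45.0, 94.3 and 106 CPM with it. With the cortical share as a term in the fit, added after the data were seen, the differences were 0.65 (unadjusted p = 0.13) for Cgas-/- and 0.50 (unadjusted p = 0.23) for Cgas+/- under P301S. Within cortical-like nuclei alone, Chrm2 had a mean of 125 ± 61.3 CPM in P301S Cgas+/+, 134 ± 24.3 in P301S Cgas+/- and 129 ± 20.4 in P301S Cgas-/- mice. The difference for the deletion there was 0.09 (SE 0.19, 95% interval -0.28 to 0.47), and the interaction was -0.09. In the P301S Cgas+/+ group 1 mouse, with 85 cortical-like nuclei, was at 241.9 CPM and the other 5 at 73.3 to 131 CPM, and without that mouse the deletion difference was 0.30 (adjusted p = 0.87). Without P301S Cgas+/+ mouse 1 it was -0.033. The mice of these groups differed in cortical share and in genotype together, so the parts of make-up and genotype in the level over all excitatory nuclei cannot be told apart.

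Chrna7 went the other way in excitatory nuclei, from a median of 134 CPM in P301S Cgas+/+ mice (lowest 72.1, highest 224) to 87.0 CPM in P301S Cgas+/- (64.7 to 113) and 83.3 CPM in P301S Cgas-/- mice (45.0 to 134). The ranges overlapped, and the differences of -0.85 (SE 0.25) for the deletion and -0.79 (SE 0.25) for the heterozygotes did not pass the test (edgeR adjusted p = 0.21 and 0.23). The interaction was -1.55 (SE 0.42, edgeR adjusted p = 0.071, DESeq2 adjusted p = 0.021), and it passed edgeR's test without Cgas+/+ mouse 2 (-1.64, adjusted p = 0.038) or P301S Cgas+/+ mouse 1 (-1.67, adjusted p = 0.023). With the cortical share as a term the 2 differences under P301S were -0.26 and -0.13. Chrna4, which like Chrm2 was higher in cortical-like than in CA1-like nuclei, had a deletion difference of 0.76 (SE 0.34, adjusted p = 0.33) and an interaction of 2.16 (edgeR adjusted p = 0.090, DESeq2 adjusted p = 0.015).

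**Figure D3:**
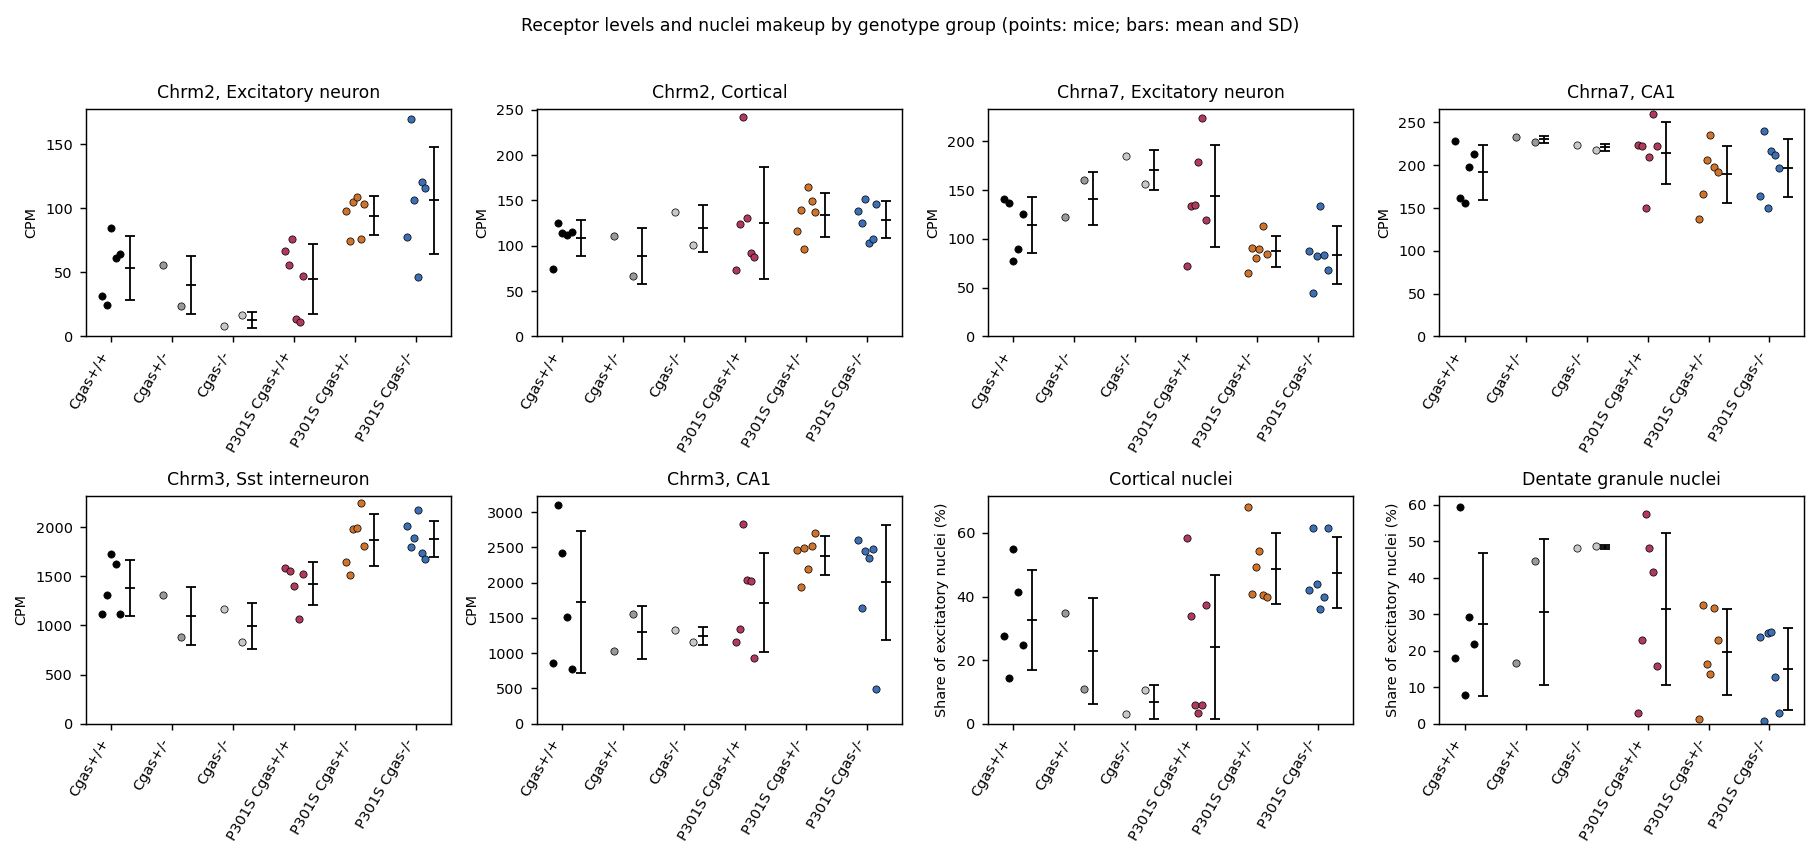
Chrm2, Chrna7 and Chrm3 in CPM in selected classes, and the percentage of excitatory nuclei that are cortical-like and dentate granule-like (vertical axes), by the 6 genotype groups (horizontal axes), with 1 point per mouse and the mean with SD as bars. Chrm2 in all excitatory nuclei is shown beside the cortical share, which averages 6.82% in Cgas-/- and 47.5% in P301S Cgas-/- mice, and Chrm2 in cortical-like nuclei alone has means of 125, 134 and 129 CPM in the P301S groups, the first of which includes 1 mouse at 241.9 CPM. Genotype and cortical share cannot be told apart here.

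In CA1-like nuclei alone, no receptor gene had an unadjusted p under 0.05 for any of the genotype comparisons. Chrm1 in CA1-like nuclei had group means of 59.2 to 80.4 CPM and Chrna7 in CA1-like nuclei group means of 189 to 230.3 CPM, each with SDs as large as the differences between the 4 larger groups. Chrm3 in CA1-like nuclei had medians of 1505 CPM in Cgas+/+ (lowest 774, highest 3098), 1678 in P301S Cgas+/+ (935 to 2828), 2477 in P301S Cgas+/- (1938 to 2705) and 2402 in P301S Cgas-/- mice (497 to 2598). All of these ranges overlapped. The share of the first CA1 subcluster, low in Chrm3, moved with these levels, and its part in them was not tested. Chrm3 in the second subcluster also varied between mice. It was 1047 CPM in P301S Cgas-/- mouse 6, of the lowest CA1 level, and 3167 CPM in Cgas+/+ mouse 2, of the highest.

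Interneuron subtypes gave 4 further genotype differences at an unadjusted p under 0.05, none of them called. In Sst-like nuclei Chrm3 had a lowest of 1062, a median of 1526 and a highest of 1587 CPM in P301S Cgas+/+ mice (n = 5), against 1678, 1840.2 and 2175 CPM in P301S Cgas-/- mice (n = 6). These ranges did not overlap, with a log2 difference of 0.33 (SE 0.13, edgeR adjusted p = 0.38, 0% of 8906 genes called in that comparison). For P301S Cgas+/- mice, whose values of 1517, 1897 and 2244 CPM overlapped with those of P301S Cgas+/+, it was 0.32 (SE 0.13, adjusted p = 0.45). The share of Sst-like nuclei in a subcluster with a pooled Chrm3 level of 2072 CPM was 23.6% in P301S Cgas+/+ and 41.8% in P301S Cgas-/- mice, and its part in the difference was not tested. Chrna7 in Sst-like nuclei had a median of 143 CPM in P301S Cgas+/+ (71.5 to 250.0) and 51.5 CPM in P301S Cgas+/- mice (25.3 to 129), with a log2 difference of -1.27 (SE 0.36, edgeR adjusted p = 0.26, DESeq2 adjusted p = 0.017). A subcluster of Sst-like nuclei with a pooled 257 CPM of Chrna7 made up 32.1% of these nuclei in the former and 16.9% in the latter group.

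Chrm2 in Pvalb-like nuclei had a median of 196 CPM in Cgas+/+ (117 to 269.6) and 273 CPM in P301S Cgas+/+ mice (182 to 398), a log2 difference of 0.55 (SE 0.26, unadjusted p = 0.046, edgeR adjusted p = 1.0). The medians were 204 CPM in P301S Cgas+/- and 218 CPM in P301S Cgas-/- mice. The Cgas+/- mice were at 184 and 265 CPM and the Cgas-/- mice at 302 and 333 CPM. A Pvalb-like subcluster with a pooled 14.3 CPM of Chrm2 made up 16.3% of Pvalb-like nuclei in Cgas+/+ and 11.2% in P301S Cgas+/+ mice. Its part in their difference was not tested. A Pvalb-like subcluster of low depth (251 nuclei, median 1407 UMIs) averaged 3.41% in Cgas+/+ and 13.97% in P301S Cgas+/+ mice, 1 of which had 55.6%. Without it, again chosen after seeing the data, the mean levels were 192 and 277 CPM, against 191 and 273 CPM with it. In oligodendrocyte-like nuclei, where its mean level was 15.1 CPM, Chrna7 differed by -0.92 (SE 0.23) between P301S Cgas-/- and P301S Cgas+/+ mice (unadjusted p = 4.9e-04, edgeR adjusted p = 1.0). Between the sexes, the lowest adjusted p was for Chrm1 in excitatory nuclei, 0.28 higher in females on the log2 scale (SE 0.11, adjusted p = 0.096). All 11 female libraries carry Cell Ranger version 3.1.0 in their headers and 8 of the 12 male libraries of this fit carry 3.0.2, and with that version as a term the difference was 0.13 (SE 0.14, adjusted p = 0.75).

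Other genes of cholinergic signalling, 57 in 6 lists of further receptor subunits, synthesis and breakdown, receptor partners, and effectors of Gq, of Gi and of Kcnq channels, were described beside the receptors. Of these, 43 were tested in 451 combinations of gene and class, and edgeR called 0 for tau (32 with an unadjusted p under 0.05, 0 by DESeq2), 0 for the deletion (44, and 3 by DESeq2) and 0 for the heterozygotes (46, and 1 by DESeq2). At an unadjusted p under 0.05 these were 7.10%, 9.76% and 10.2% of the combinations, against 4.87%, 5.76% and 5.51% over all genes. Between the sexes 3 were called, or 0.665% against 2.69% over all genes (60 with an unadjusted p under 0.05, which is 13.3% against 15.2%, and 10 by DESeq2). Among them, Kcnq3, an M-current channel subunit, was higher in females in dentate granule-like nuclei (0.32, adjusted p = 0.017), and Gnai1, a Gi subunit, was higher in females in inhibitory nuclei (0.26, adjusted p = 0.011). Neither call was kept with the header version as a term (0.23, adjusted p = 0.34, and 0.15, adjusted p = 0.58), a term added after seeing the data. Sex and header version cannot be fully told apart in these libraries. In the fit of 27 mice, 0 of 196 were called for Cgas-/- against Cgas+/+ (8 with an unadjusted p under 0.05, which is 4.08% against 3.74% over all genes, and 1 by DESeq2) and 0 for the interaction (26, which is 13.3% against 7.67%, and 6 by DESeq2).

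The most abundant genes of these lists differed in how evenly neurons carried them. Kcnq5 ran from 101 CPM in dentate granule-like to 6041 CPM in CA2-like nuclei, with a mean over neuron subtypes of 2073 CPM, and Kcnq3 from 440.1 to 2181 CPM. Plcb1, the phospholipase downstream of Gq, ran from 588 to 2282 CPM and Prkca, a protein kinase C, from 87.2 to 3423 CPM. Rgs7, a regulator of Gi/o signalling, ran from 476 to 1623 CPM and Gnao1, the Go subunit, from 224 to 711 CPM. Nptn ran from 206 to 470.3 CPM and Ly6h, a nicotinic receptor regulator, from 45.0 to 96.5 CPM. Ache, which breaks acetylcholine down, ran from 2.83 CPM in dentate granule-like to 36.5 CPM in Sst-like nuclei, whereas Slc44a1, a choline transporter, was more even at 105 to 249 CPM. Chrnb3 and Chrnb1, the further subunits with the highest levels, averaged 0.857 and 0.676 CPM.

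The genes whose pattern over 28 types most resembled that of a receptor gene were found by the correlation of mean log2(CPM + 1) among 16042 genes with at least 5 CPM in 1 type. They share libraries and nuclei with the receptor gene, and the correlations are a description. For Chrm1 they were Kcnj6, Camkv (r = 0.92 each) and Camk2a (0.91), for Chrm3 Slc6a7, St8sia5 (0.88 each) and Gm9866 (0.85), and for Chrm2 the overlapping 9330158H04Rik (0.85), Oprd1 and Rasgef1c (0.79 each). For Chrna4 they were Grm8 (0.78), Gm14507 (0.69) and Hs6st2 (0.68), and for Chrna5 2010300F17Rik, Rspo2 (0.67 each) and Sez6 (0.64). For Chrna7 they were AC155255.1, Dgkg (0.82 each) and Mmp24 (0.80), and for Chrnb2 Clvs1 (0.91) and B830012L14Rik (0.89). With log2(CPM + 0.1) as the scale, 1 of the 3 genes was shared for Chrna5 and for Chrnb2, and 2 or 3 for the others. The lowest of these best values were those of Chrna5 and Chrna4, and Chrm4 was too low to be ranked.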

How the data were processed

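Nuclei of frozen hippocampi were sorted by DAPI and profiled by droplet-based 3′ RNA-sequencing. Per the labels, the authors aligned the reads and counted UMIs, introns included, with Cell Ranger (3.1.0) on mm10 and deposited 1 unnormalized count matrix per mouse. The file headers give version 3.0.2 for 12 libraries, all from males, and 3.1.0 for 15. The annotation release and the use of strand are not given in the sources used here.

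From these counts, nuclei passed if they had 200 to 4000 genes and no more than 5% of UMIs from mitochondria, and 16429 doublets were removed with Scrublet in scanpy (1.11.5), at an expected rate of 0.8% per 1000 barcodes. Nuclei were clustered on 2000 variable genes (30 principal components, 15 neighbours, resolution 1), leaving out the receptor and other cholinergic genes. Clusters were named by marker lists: 40 of 44 over all nuclei, 25 of 38 excitatory and 24 of 25 inhibitory subclusters. The scoring rule for names was revised after first cluster names were seen.

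Counts were summed per mouse and class and tested with edgeR (4.0.16; TMM, filterByExpr, robust quasi-likelihood test), with sex as covariate, in classes with at least 20 nuclei in 5 mice per group. The larger fit used the 23 mice of 4 groups, and a second fit used all 27. Benjamini-Hochberg adjustment ran over all genes tested in a class, and an adjusted p under 0.05 was a call. Neuron subtypes were compared with the mouse as a block, and this fit used edgeR's newer quasi-likelihood dispersion in place of estimateDisp for speed. CPM are UMIs of a gene scaled to a total of 1e+06 for each mouse and class. Each library is 1 mouse, so p-values between genotypes or sexes measure the spread between mice. Those between subtypes measure the spread left once the mean level of each mouse is taken out. Pairs of cortical subtypes and the unnamed subclusters described were chosen after the data were seen.

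On simulated counts, the comparison of P301S Cgas+/+ with Cgas+/+ in CA1-like nuclei (12211 genes) recovered 61% of genes changed 2-fold and 97% of genes changed 4-fold, and the comparison of CA1-like with dentate granule-like nuclei (12242 genes) recovered 100% and 97%. Of the calls, 7.60% and 4.37% were false in these comparisons. The first simulation took the trended dispersions of the data. The second gave all genes the same dispersion, held only CA1-, CA3- and dentate granule-like nuclei and had no effect of the mouse. Recovery in the real comparisons may therefore differ. Alternatives were DESeq2 (1.42.0), limma voom (3.58.1), other size factors, no low-count filter, no sex term, deeper nuclei and each mouse left out. All 8 receptor genes were named everywhere. Of the other pathway genes, those called and the 2 of highest level per list were named, as were the 3 genes most like each receptor gene. The receptor genes, lists and comparisons were chosen with earlier results of these data known. Gene positions are from GENCODE on GRCm38. Some genes that these rules would name are not reported here. No sequences are shown.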

Additional observations from a re-analysis of the deposited data

Results flagged for a closer look

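Of 56 groups of 4 to 6 mice examined for a mouse far from the rest, 5 held one, where chance alone gives about 1 in 20. In cortical-like nuclei Chrm2 was at 74.1 CPM in Cgas+/+ mouse 1, with the other 4 mice at 112 to 126 CPM, and at 241.9 CPM in P301S Cgas+/+ mouse 3, whose 85 cortical-like nuclei compare with 73.3 to 131 CPM in the other 5 mice. Chrna4 in Vip-like interneurons was at 28.2 CPM in P301S Cgas+/- mouse 3 (86 nuclei, others 12.7 to 18.0 CPM) and at 28.4 CPM in P301S Cgas-/- mouse 1 (63 nuclei, others 10.4 to 16.9 CPM). Chrnb2 in excitatory nuclei was at 7.72 CPM in P301S Cgas-/- mouse 2, with the others at 4.83 to 5.92 CPM.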

How the results depend on the processing

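Mice could not be paired between genotype groups. The labels give the mice no replicate numbers, and the numbers used here only follow the order of the libraries. Subtypes were compared within mice, with the mouse as a block. The number of receptor genes called stayed at 0 under most alternatives. Without the low-count filter it was 1 for tau and 1 for the heterozygotes, both Chrm2 in Pvalb-like nuclei (0.53, adjusted p = 0.043, and -0.49, adjusted p = 0.010), against 0.065% and 0.146% of all combinations. DESeq2 called 1 for the heterozygotes (Chrna7 in Sst-like nuclei) and 3 for the interaction (Chrm2, Chrna4 and Chrna7 in excitatory nuclei), against 0.173% and 1.22% of all combinations, and the 15 libraries with header version 3.1.0, an alternative chosen after seeing the data, called 1 for the heterozygotes (Chrna7 in Sst-like nuclei, -1.92, adjusted p = 0.042, against 0.0619% of all). Leaving out 1 mouse gave 0 to 1 calls between the sexes, with 1 (Chrm1 in excitatory nuclei) without Cgas+/+ mouse 3 or without P301S Cgas-/- mouse 6, and 0 to 3 for the interaction, with 1 without Cgas+/+ mouse 1 or P301S Cgas-/- mouse 4 and 3 without Cgas+/+ mouse 2 or P301S Cgas+/+ mouse 1. For the other comparisons it gave 0. The share of all combinations called in the fits without 1 mouse is not given here, so these counts cannot be set against it. Chrm2 in cortical-like nuclei, 0.09 for the deletion, changed sign to -0.068 with header version 3.1.0 only and to -0.033 without P301S Cgas+/+ mouse 1 (range -0.033 to 0.30). The cause of these changes was not tested.

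Of 84 differences between neuron subtypes, with the mouse as a block, all kept their call with RLE size factors and with nuclei of at least 1000 UMIs, 5 more were called by limma voom, Chrna5 in CA3-like against dentate granule-like nuclei among them (1.09, adjusted p = 2.5e-04), and 2 lost their call without the low-count filter (Chrm1 in CA2 against CA3, 0.25, and in Pvalb against Vip, -0.25). The shares of all genes called between subtypes under these alternatives are not given here, so these counts cannot be set against them. Chrm4, Chrna5, Chrnb2 and Chrna4 had 178, 3071, 5857 and 5984 UMIs over all nuclei, which limits what can be seen per mouse and subtype. The 2 small groups hold male libraries with header version 3.0.2 only. With log2(CPM + 0.1), 1 of the 3 most alike genes was shared for Chrna5 and Chrnb2. The groups of 2 mice limit every comparison that uses them.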
